A study of Mus musculus with 6 samples.

Results

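The genes described here run, sense and export cholesterol: Hmgcs1, Sqle and Idi1, enzymes of its synthesis, Insig1, which senses sterols, Srebf1 and Srebf2, which encode the sterol-regulated transcription factors SREBP-1 and SREBP-2, and Abca1 and Abcg1, which export cholesterol. They were chosen by name, as 8 of the 26332 genes in the count table, and all 8 passed the filter on low counts. Of the 8, Hmgcs1, Sqle and Idi1 had lower RNA levels in thymocytes of knockout mice for Tcf7 than in wild type thymocytes by edgeR's test, and none was called higher, where 30.7% of all genes tested were called and 16.5% were lower. The count was 1 of 8 without any 1 of the first 3 wild type libraries and 0 of 8 with limma-voom and a weight per genotype. The other 5 did not pass the test over both knockout mice. Abca1, Abcg1, Insig1 and Srebf2 differed in a test of the knockout effect in males against that in females, Abca1 by the most. In that test 54.7% of all genes did so too. With 1 knockout mouse per sex, sex and any other difference between these mice cannot be told apart.

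The series compared sorted double negative 3 (DN3) thymocytes, the stage of β chain rearrangement in T-cell development, from wild type (WT) and Tcf7 knock-out (KO) mice on a C57BL/6 background. Tcf7 encodes TCF-1, a transcription factor of early T-cell development, and the series title gives its role in these cells as the question. Each library came from 1 mouse, the males being WT 4 and KO 1 and the females WT 1 to 3 and KO 2. Cells were sorted as CD25+ and as negative for CD44, CD3, TCRβ, CD8, NK1.1 and the CD1d tetramer, and the labels name no other allele or treatment. The mice's age is not given in the sources used here, nor is the part of Tcf7 that was removed.

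Cells keep their cholesterol within limits by a feedback loop. When sterols in the endoplasmic reticulum are low, SCAP carries the SREBP proteins to the Golgi, where they are cut, and the released part enters the nucleus and switches on genes of sterol synthesis and uptake. INSIG proteins hold SCAP back when sterols are high, and the liver X receptors (LXR), activated by oxysterols, switch on export through ABCA1 and ABCG1. Dividing lymphocytes draw on this pathway for new membranes, and SREBP activity is needed for T cells to grow and divide.

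The WT libraries held 23711513 to 41666797 counts, KO 1 held 19589938 and KO 2 held 13673860. Levels are counts per 1000000 library counts (CPM). For Tcf7, WT 1 to 4 had 2326, 2270, 2266 and 2094 CPM, KO 1 had 1133 and KO 2 had 1022. It thus fell by 1.05 on the log2 scale (SE 0.086, edgeR adjusted p = 0.00127), and its RNA remained in both libraries labelled KO. By edgeR's quasi-likelihood test 30.7% of 13294 genes were called, that is, they had a Benjamini-Hochberg adjusted p under 0.05, with 16.5% of the tested genes lower and 14.1% higher in KO. The DN3 markers were present in each library, with the CD25 gene Il2ra at 1751 to 2119 CPM over the WT libraries, 1131 for KO 1 and 708 for KO 2. The summed level of the 13 DN3 markers was 12914 to 13855 CPM over the WT libraries, 11343 for KO 1 and 11033 for KO 2. Single markers moved more than this sum. Of the 13, 6 were called lower and 1 higher. Hes1 was at 222 to 274 CPM over the WT libraries, 76.7 for KO 1 and 86.5 for KO 2. Dtx1, the higher one, was at 231 to 249, 922 and 808 CPM. Rag1, not called, was at 1476 to 1925, 521 and 1953 CPM. Genes of some other cell types were higher in the KO libraries and those of others were not. The 12 B-cell markers summed to 258 to 287 CPM over the WT libraries, 813 for KO 1 and 1172 for KO 2. Of these, Ms4a1 and Pax5 were at 0 in every library but KO 2, where they reached 36.0 and 7.54 CPM. The double positive and mature T-cell markers summed to 668 to 814 CPM over the WT libraries, 1759 for KO 1 and 3179 for KO 2, with Cd8a at 0.703 to 3.72, 66.9 and 858 CPM. Markers of macrophages, which express Abca1 strongly, were low throughout (15 genes, 21.3 to 25.3 CPM over the WT libraries, 34.1 for KO 1 and 28.6 for KO 2, with Cd14 at 0). Dendritic markers summed to 335 to 363 CPM over the WT libraries, 201 for KO 1 and 630.0 for KO 2, with Siglech and Cd209a at 0. Much of the dendritic sum was Ccr9, which thymocytes also express, and without it the sum was 187 to 205 CPM over the WT libraries, 167 for KO 1 and 185 for KO 2. Thymic stroma markers summed to 257 to 275 CPM over the WT libraries, 190.5 for KO 1 and 188 for KO 2, with Krt5, Foxn1, Col3a1 and Pdgfra at 0. Most of that sum was Epcam and Pecam1, which moved in opposite directions. Epcam was at 147 to 158 CPM over the WT libraries, 46.1 for KO 1 and 52.9 for KO 2. Pecam1 was at 109 to 115, 138 and 134 CPM. Erythroid markers summed to 4.39 to 15.4 CPM over the WT libraries, 5.83 for KO 1 and 35.5 for KO 2. The mitochondrial genome gave 2.61 to 2.92% of the counts over the WT libraries, 0.893% for KO 1 and 1.78% for KO 2. On the first principal components of all genes the WT libraries lay together, and KO 1 and KO 2 lay far from them and from each other. The part of these transcripts and of the mitochondrial share in the results was not tested, so results for the 8 genes are also given without single libraries. With sex as a term, the fits without KO 1 and without WT 4 both compare KO 2 with WT 1 to 3, so they count as 1 comparison. In bulk RNA, fewer cells of a type and less RNA per cell cannot be told apart.

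The upstream sequences of Hmgcs1, Srebf2, Abca1 and Srebf1 show the letters through which SREBP and LXR are known to act. They are given because these 4 genes can be paired by shared letters. Abca1 and Srebf1 had unlike patterns in KO. Hmgcs1 and Srebf2 both lay below all WT libraries in both KO libraries, and only Hmgcs1 was called. The difference between the genes of a pair was not tested. RefSeq's table for GRCm38.p6 held start sites for 6 of the 8 genes, and the windows are the 250 bases before the annotated start, 5′ to 3′ on the gene's strand. Capitals mark matches on either strand to a sterol regulatory element (SRE, core TCACNCCA), to the CCAAT box (ATTGG on the other strand), which NF-Y binds, to the E-box CACGTG, and to GGTTA and CGGTCA set apart by any 4 bases. The last follows the repeat with a spacer of 4 bases that LXR binds, and its letters were chosen with known elements in view. The windows lie at chr13:119690101-119690350 (plus strand) for Hmgcs1, chr15:82147019-82147268 (plus) for Srebf2, chr4:53159896-53160145 (minus) for Abca1 and chr11:60210472-60210721 (minus) for the third of 3 annotated starts of Srebf1.
Hmgcs1: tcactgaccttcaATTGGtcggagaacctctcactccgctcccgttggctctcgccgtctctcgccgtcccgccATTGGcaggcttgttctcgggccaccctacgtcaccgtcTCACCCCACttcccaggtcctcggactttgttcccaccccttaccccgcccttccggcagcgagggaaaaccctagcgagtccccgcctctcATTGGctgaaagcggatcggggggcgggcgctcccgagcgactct
Srebf2: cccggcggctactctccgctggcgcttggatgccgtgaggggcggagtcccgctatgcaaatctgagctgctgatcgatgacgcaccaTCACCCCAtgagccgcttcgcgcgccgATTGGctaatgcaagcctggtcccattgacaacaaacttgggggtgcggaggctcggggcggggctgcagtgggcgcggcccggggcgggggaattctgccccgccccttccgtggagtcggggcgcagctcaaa
Abca1: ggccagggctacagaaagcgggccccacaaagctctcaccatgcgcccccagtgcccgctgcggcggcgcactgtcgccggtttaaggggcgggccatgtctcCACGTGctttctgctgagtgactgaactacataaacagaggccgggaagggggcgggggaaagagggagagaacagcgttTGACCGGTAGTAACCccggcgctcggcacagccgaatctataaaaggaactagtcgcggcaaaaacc
Srebf1: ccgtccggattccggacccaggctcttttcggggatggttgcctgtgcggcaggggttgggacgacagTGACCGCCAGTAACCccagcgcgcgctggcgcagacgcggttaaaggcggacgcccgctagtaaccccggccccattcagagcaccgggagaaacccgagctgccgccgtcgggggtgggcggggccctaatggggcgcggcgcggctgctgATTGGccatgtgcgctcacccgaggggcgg

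Hmgcs1 held TCACCCCAC from 137 to 129 bases before the start and ATTGG at 3 places. Srebf2 held TCACCCCA from 162 to 155 bases before the start, followed by ATTGG at 135 to 131. Over all 32851 windows of the same length, 3.67% held the SRE core, 33.8% a CCAAT box in either direction and 6.02% the E-box. The LXR-like letters stood from 67 to 53 bases before the Abca1 start and from 182 to 168 before that Srebf1 start. Since they were chosen to fit known elements, these matches and the small number of windows that hold them (4) follow from the choice. Idi1 (window chr13:8885356-8885605, plus strand) held 2 ATTGG matches and no SRE core. Insig1 (chr5:28071162-28071411, plus strand) held 1 ATTGG and an E-box, which the Abca1 window held as well. CTTTGAT, letters that TCF-1 and LEF-1 bind, matched none of the windows of the 6 genes and 3.21% of all windows. A match is a description of the letters, not a bound site, and binding was not measured.

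Enzymes of synthesis come first. Hmgcs1 (Entrez 208715, chromosome 13, 119690351 to 119708260) joins acetyl units early in the mevalonate pathway. It stood at 157, 150.0, 163 and 133 CPM in WT 1 to 4, with KO 1 at 114 CPM and KO 2 at 124 CPM. Both KO libraries lay below all WT libraries, but WT 4 was closer to KO 2 than to WT 3. Hmgcs1 fell 1.22-fold from 150.7 CPM ± 12.9 (SD, n = 4; log2 -0.29, SE 0.073, edgeR adjusted p = 0.0355). The call was lost without WT 1, 2 or 3 (edgeR adjusted p = 0.13, 0.105 and 0.124) and was held without KO 1 (3.86e-06) or KO 2 (0.000927).

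Sqle (Entrez 20775, chromosome 15, 59315092 to 59331193) encodes squalene epoxidase, which makes the first oxygenated intermediate of the sterol-specific branch. It stood at 112, 108, 106 and 101 CPM in WT 1 to 4, with KO 1 at 72.9 CPM and KO 2 at 68.2 CPM. The WT libraries lay close together and far above both KO libraries. Sqle fell 1.51-fold from 107 CPM ± 4.38 (SD, n = 4; log2 -0.59, SE 0.0811, edgeR adjusted p = 0.00586), and was called with each single library left out. With limma-voom and a weight per genotype, which lets KO vary more than WT, its adjusted p was 0.0915.

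Idi1 (Entrez 319554, chromosome 13, 8885606 to 8892396) interconverts the activated isoprene units from which all sterols are built. Its levels were 25.4, 22.4, 23.2 and 18.0 CPM in WT 1 to 4, with KO 1 at 11.6 CPM and KO 2 at 14.9 CPM. The groups did not overlap, and WT 4 again stood lowest of WT. Idi1 fell 1.57-fold from 22.2 CPM ± 3.10 (SD, n = 4; log2 -0.65, SE 0.118, edgeR adjusted p = 0.0137). The call was lost without WT 1, 2 or 3 (edgeR adjusted p = 0.0674, 0.0598 and 0.0644), while the log2 change was -0.65 without KO 1 and -0.64 without KO 2. For none of these 3 enzymes did the KO effect differ between the male and the female comparison at an adjusted p under 0.05 (edgeR interaction term, adjusted p = 0.278 for Hmgcs1, 0.0652 for Sqle and 0.896 for Idi1).

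**Figure D1:**
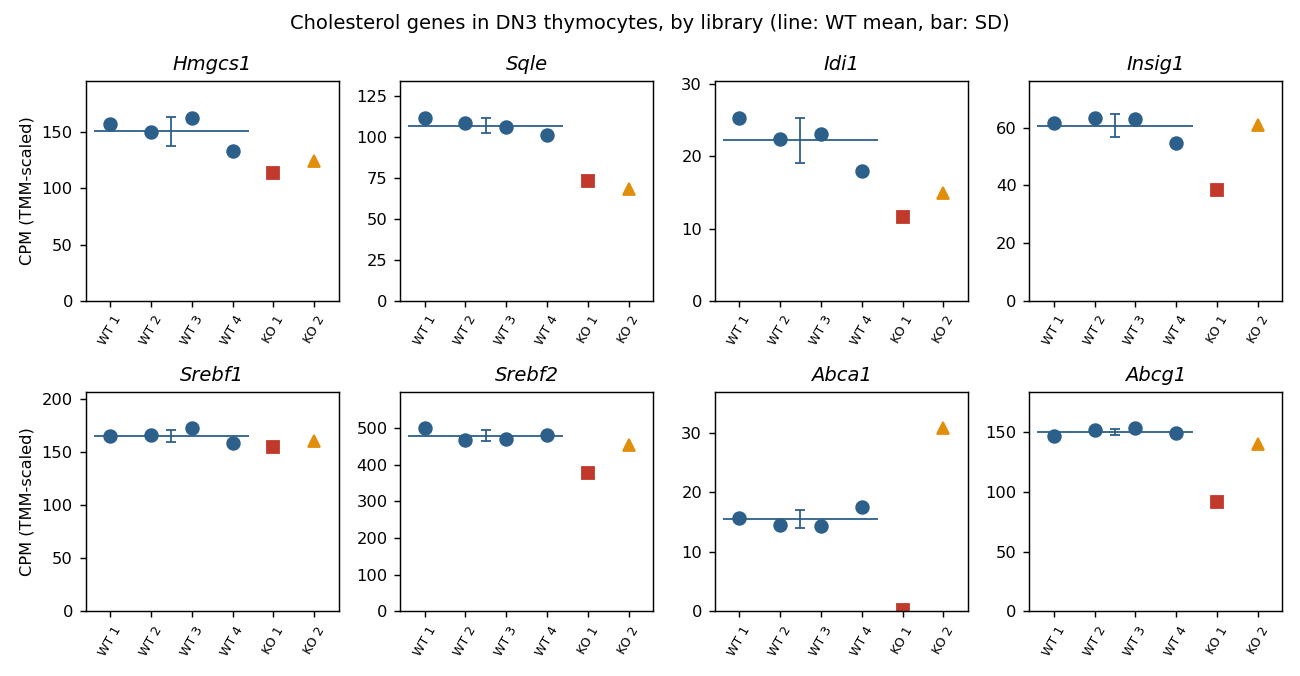
Level of each of the 8 genes by library (y axis, CPM), with 1 point per library, a line for the WT mean and a bar for its SD. Sqle and Idi1 show both KO libraries below every WT library, while for Abca1 KO 1 sits near 0 and KO 2 above all WT libraries.

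Insig1 (Entrez 231070, chromosome 5, 28071412 to 28078662), itself an SREBP target, encodes a protein that retains SCAP in the endoplasmic reticulum. It stood at 61.5, 63.5, 62.9 and 54.8 CPM in WT 1 to 4, at 38.3 CPM in KO 1 and at 60.9 CPM in KO 2. KO 1 was below all WT libraries and KO 2 lay within their range. Over both KO mice Insig1 was not called (log2 -0.23, SE 0.122, edgeR adjusted p = 0.212). Without KO 2 it was called lower (log2 -0.53, edgeR adjusted p = 9.85e-07), in a fit that with sex as a term sets KO 1 against WT 4 alone and takes its spread from the WT females.

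The genes of the SREBP proteins were not called. Srebf1 (Entrez 20787, chromosome 11, 60199084 to 60224186), whose product favours fatty acid genes, stood at 165, 167, 173 and 159 CPM in WT 1 to 4, with KO 1 at 155 CPM and KO 2 at 161 CPM. The difference was -0.05 on the log2 scale (SE 0.0629, edgeR adjusted p = 0.56), and Srebf1 was called under none of 13 alternative analyses. Its 3′ end overlaps Rai1, so reads there cannot be told apart without strand. Srebf2 (Entrez 20788, chromosome 15, 82147269 to 82205379), whose product favours sterol genes, stood at 499, 466, 470.4 and 482 CPM in WT 1 to 4, at 376 CPM in KO 1 and at 453 CPM in KO 2. Both KO libraries were below all WT libraries, KO 2 narrowly so. Srebf2 was not called (log2 -0.19, SE 0.0866, edgeR adjusted p = 0.156), but was called lower without KO 2 (log2 -0.37, edgeR adjusted p = 3.51e-07). These are RNA levels, and the cutting of the SREBP proteins was not measured.

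Abca1, an exporter, differed most between the KO mice of the 8 genes. Abca1 (Entrez 11303, chromosome 4, 53030789 to 53159988) encodes the transporter that loads cholesterol onto lipid-poor apolipoproteins. It stood at 15.7, 14.5, 14.3 and 17.6 CPM in WT 1 to 4, at 0.205 CPM in KO 1 and at 30.7 CPM in KO 2. KO 1 was nearly without Abca1 reads and KO 2 lay above every WT library. KO 1 held 4 Abca1 counts (exact 95% Poisson interval 1.09 to 10.2) and KO 2 412, and the normalised level in KO 2 was 150.1 times that in KO 1 (95% interval 58.2 to 554, counting error only). The WT level was 76.2 times that of KO 1 (29.7 to 280.0), and KO 2 stood at 1.97 times the WT level (1.77 to 2.19). The fit over both KO mice therefore gave a small value with a large error (log2 -0.39, SE 1.29, edgeR adjusted p = 0.846). It turned to 1.06 without KO 1 (edgeR adjusted p = 9.96e-10) and to 1.05 without WT 4 (2.28e-09), both fits comparing KO 2 with the WT females, and was -6.41 without KO 2 (2.58e-19). Of the markers given above, Ccr9 moved the same way (130.2 to 162 CPM over the WT libraries, 34.5 for KO 1 and 444 for KO 2). Irf8, another dendritic marker, did so too (11.3 to 13.9 CPM over the WT libraries, 5.32 for KO 1 and 23.5 for KO 2). The pattern was not particular to dendritic markers. Rag2 of the DN3 list showed it (90.8 to 102.6 CPM over the WT libraries, 32.6 for KO 1 and 114.3 for KO 2). So did Cd79b of the B-cell list (42.4 to 50.8, 10.8 and 62.5 CPM), and Rag1, Cd4, Hbb-bs and Alas2. Other markers in each of these lists did not. Without Ccr9 the dendritic sum was below every WT library in both KO libraries, in KO 2 narrowly so (185.4 against at least 186.6 CPM). Most of that sum was Bst2, lower in both (174.6 to 191.3 CPM over the WT libraries, 161.2 for KO 1 and 160.9 for KO 2). The macrophage sum was higher in KO 1 than in KO 2. B-cell and mature T-cell markers were also highest in KO 2, and the part of any of them in the Abca1 level was not tested.

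Abcg1 (Entrez 11307, chromosome 17, 31057694 to 31117984) encodes the partner transporter that passes cholesterol to mature lipoproteins. Its levels were 146, 151, 153 and 149 CPM in WT 1 to 4, 91.4 CPM in KO 1 and 139 CPM in KO 2. Both KO libraries were below all WT libraries, KO 1 by far the more. Abcg1 was not called over both KO mice (log2 -0.34, SE 0.141, edgeR adjusted p = 0.128) and was called lower without KO 2 (log2 -0.71, edgeR adjusted p = 2.82e-13).

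Over the 8 genes, the count of 3 lower and 0 higher stands beside 16.5% lower among all genes tested, and the median log2 difference was -0.31 against -0.045 for all genes. Both KO libraries lay below all WT libraries for 5 of the 8 (Hmgcs1, Sqle, Idi1, Srebf2 and Abcg1), against 28.6% of all genes. KO 1 was below KO 2 for 7 of the 8, Sqle being the exception, against 50.1% of all genes. WT 4, the male WT mouse, was the lowest WT library for 5 of the 8 (35.7% of all genes). The difference of the KO effect between the male and the female comparison was called for Abca1, Abcg1, Insig1 and Srebf2. With 1 KO library per sex, sex and any other difference between these KO mice cannot be told apart, the spread comes from the WT females, and 54.7% of all genes were called in that test. At an unadjusted p under 0.05 it took in 5 of the 8, against 59.3% of all genes. With weights per genotype 0 of the 8 were called by limma-voom, 3 at an unadjusted p under 0.05, beside 11.3% of all genes (3.86% lower).

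**Figure D2:**
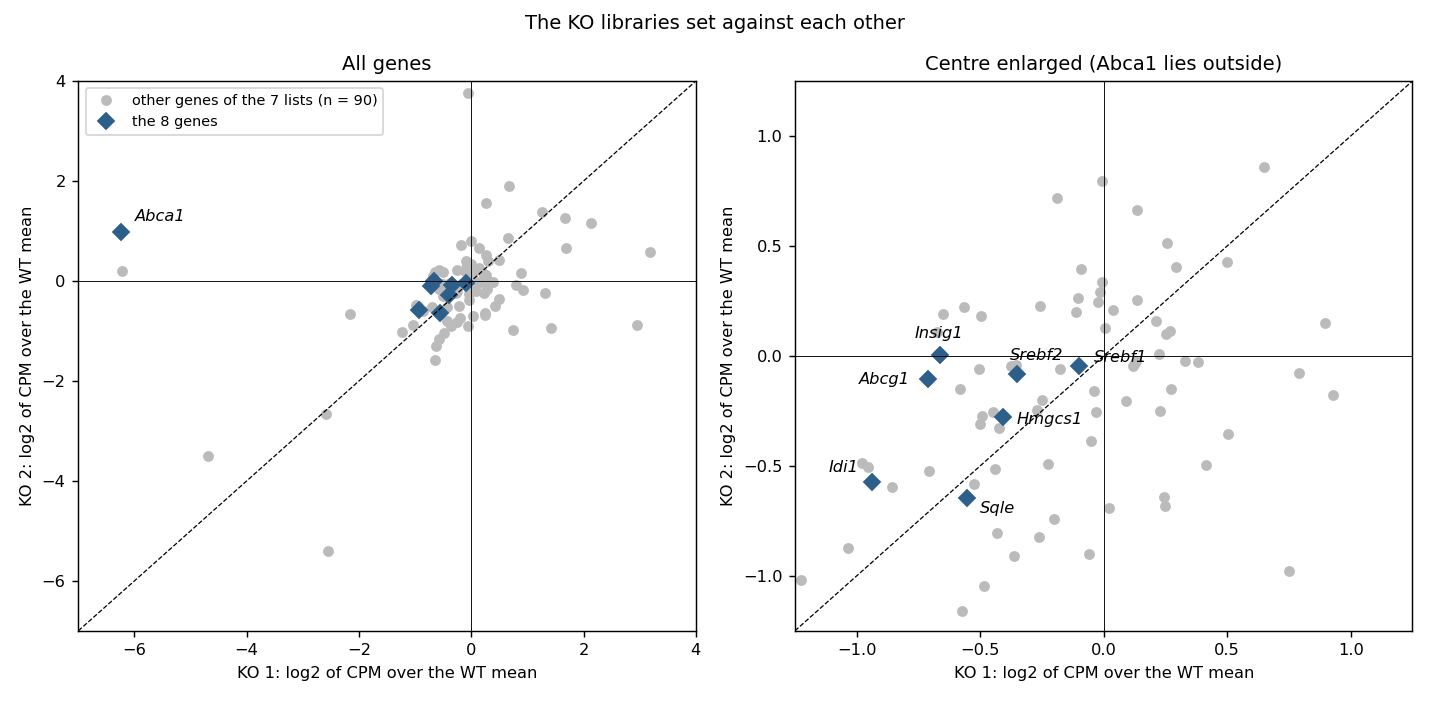
Log2 ratio to the WT mean in KO 2 (y axis) against that in KO 1 (x axis) for the 8 genes and the other genes of the sterol and lipid lists, with the second panel enlarging the centre and the dashed line marking equal values. Ch25h, at 0 in KO, is not drawn. Hmgcs1, Sqle and Idi1 lie below 0 on both axes, whereas Abca1 lies far to the left and above 0.

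Levels per gene length (RPKM, CPM divided by gene length in kilobases) put Srebf2 highest in WT at 104.9 ± 3.20 RPKM (SD, n = 4). Hmgcs1 (45.9 ± 3.93), Sqle (38.9 ± 1.59) and Srebf1 (38.6 ± 1.35) followed, and neighbours among these 3 overlapped in their WT ranges. Abcg1 (25.7 ± 0.488), Insig1 (22.9 ± 1.51), Idi1 (7.76 ± 1.08) and Abca1 (1.51 ± 0.148) followed in that order without overlap. In KO 1, Srebf1 (36.0 RPKM) stood above Hmgcs1 (34.7) and Sqle (26.5). In KO 2, Hmgcs1 (37.9) stood above Srebf1 (37.4) and Sqle (24.8), and the rest kept the WT order.

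**Figure D3:**
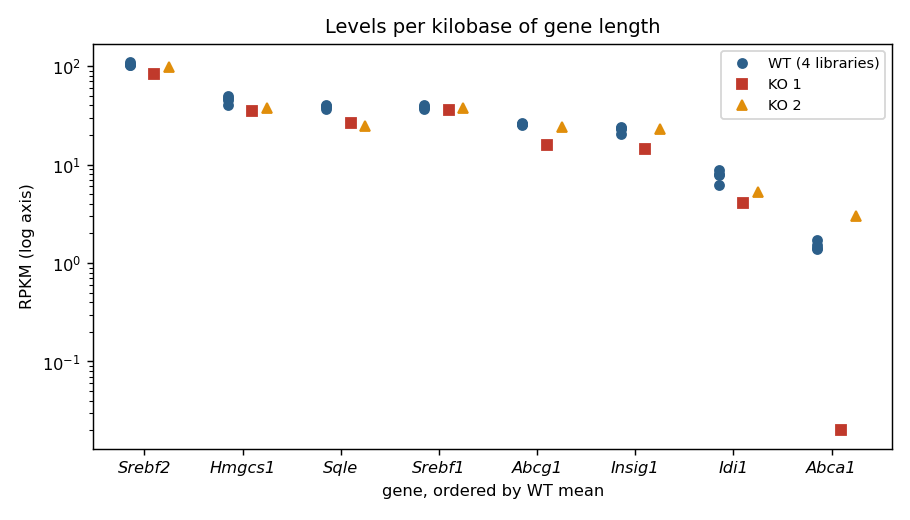
Level per gene length (RPKM, log axis) of the 8 genes in each WT library (circles), KO 1 (square) and KO 2 (triangle), ordered by the WT mean. Srebf2 is highest at 104.9 RPKM and Abca1 lowest at 1.51 RPKM in WT.

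The wider synthesis pathway was read from a list of 20 enzymes, from the joining of acetyl units to the last reduction. Of these, 9 were lower, 1 was higher and 10 were not called, with a median log2 difference of -0.25. Among all genes tested 16.5% were lower and 14.1% higher. For 14 of the 20, WT 4 was the lowest WT library, against 35.7% of all genes. Of the 9 enzymes before Sqle in the pathway, 2 were lower (Hmgcs1 and Idi1) and 1 higher. Of the 11 from Sqle on, 7 were lower (Sqle, Lss, Tm7sf2, Msmo1, Nsdhl, Hsd17b7 and Dhcr7) and 0 higher. The division at Sqle was not among the planned comparisons, and the difference between the parts of the list was not tested. Dhcr7, which makes cholesterol from its direct precursor, fell from 152 CPM ± 4.30 (SD, n = 4) to 74.3 and 83.3 CPM (log2 -0.93, SE 0.0674, edgeR adjusted p = 0.000875), and was called in each of 13 alternatives. The demethylation enzymes followed. Msmo1 fell from 48.3 ± 5.45 to 24.9 and 34.0 CPM (log2 -0.63, edgeR adjusted p = 0.00478), Nsdhl from 37.7 ± 1.84 to 26.2 and 25.2 CPM (0.0119) and Hsd17b7 from 24.3 ± 1.42 to 14.9 and 16.9 CPM (0.015). Mvd, which makes isopentenyl diphosphate just ahead of Idi1, rose instead, from 31.0 ± 1.00 to 43.8 and 41.7 CPM (log2 0.44, SE 0.0759, edgeR adjusted p = 0.0118). Cyp51, the lanosterol demethylase (99.0 CPM in WT, 66.2 and 89.1 in KO), was not called. Without WT 1, 2 or 3 the list held 3, 3 and 4 calls, all lower, without WT 4 or KO 1 it held 14, without KO 2 it held 18, and with weights per genotype Dhcr7 alone was called. Nsdhl lost its call without WT 1 or WT 2, and Hsd17b7 and Mvd without any of WT 1, 2 and 3 (edgeR adjusted p 0.0598 to 0.0765 for Hsd17b7 and 0.0609 to 0.0634 for Mvd).

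**Figure D4:**
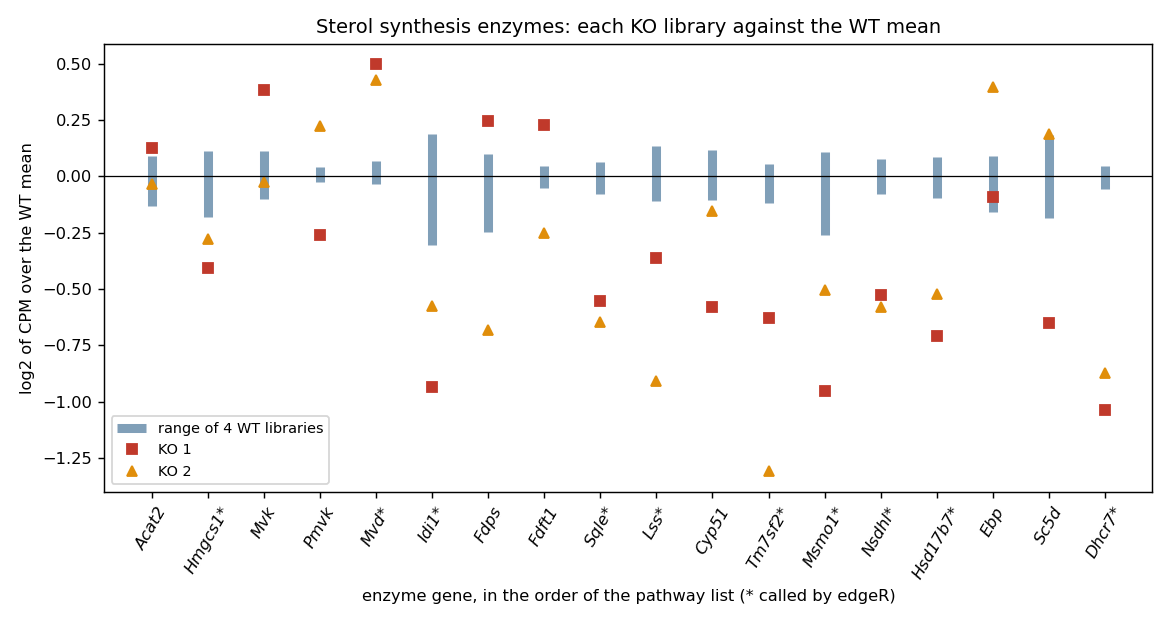
Log2 ratio to the WT mean of 18 synthesis enzymes of the list in pathway order (y axis), with bars for the range of the 4 WT libraries, squares for KO 1 and triangles for KO 2. The enzymes from Sqle to Hsd17b7, and Dhcr7, lie below 0 in both KO libraries, and Mvd lies above.

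Of 16 genes that control SREBP, 3 were higher, 3 lower and 10 not called (median log2 -0.07). Among all genes tested 14.1% were higher and 16.5% lower. Rnf145, a ubiquitin ligase known to act on SCAP, rose from 107 CPM ± 3.51 (SD, n = 4) to 168 and 195 CPM (log2 0.77, SE 0.082, edgeR adjusted p = 0.00279). Mbtps1, the protease that makes the first cut in SREBP, fell from 347 ± 1.28 to 258 and 277 CPM (log2 -0.37, edgeR adjusted p = 0.0117). Insig2 rose from 17.3 ± 0.761 to 20.7 and 24.8 CPM (log2 0.42, edgeR adjusted p = 0.039). Erlin1, of an endoplasmic reticulum complex, fell from 47.2 to 40.4 and 33.6 CPM (edgeR adjusted p = 0.0463). Scap was not called (169 CPM in WT, 165 and 142 in KO, edgeR adjusted p = 0.123). Without WT 1, 2 or 3 only Rnf145 was called in this list, while 10 were called without WT 4 or without KO 1 and 12 without KO 2.

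Of 17 tested genes of sterol uptake and transport, 5 were lower, 2 higher and 10 not called (median log2 0.17, turning to -0.05 without KO 2). The shares over all genes tested were 16.5% lower and 14.1% higher. Lrp1, an endocytic receptor that takes up lipoprotein remnants, fell 15-fold, from 132 CPM ± 11.9 (SD, n = 4) to 22.6 and 3.13 CPM (edgeR adjusted p = 0.00993). Osbpl1a, an oxysterol-binding protein of late endosomes, fell 16.0-fold, from 48.8 ± 5.48 to 1.89 and 4.33 CPM (edgeR adjusted p = 0.0017). Gramd1a, which moves cholesterol from the plasma membrane to the endoplasmic reticulum, rose 2.57-fold, from 32.0 ± 8.84 to 102 and 76.9 CPM (edgeR adjusted p = 0.00132). Mylip, a ubiquitin ligase and LXR target, was not called (26.3 CPM in WT, 26.1 and 45.6 in KO, edgeR adjusted p = 0.112). Without WT 4 the list held 15 calls and without KO 1 it held 16.

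Of 13 tested genes of LXR and efflux, 3 were higher, 0 lower and 10 not called (median log2 0.06, turning to -0.04 without KO 2). All genes tested gave 14.1% higher and 16.5% lower. Rxra, the partner receptor of LXR, rose 3.16-fold, from 9.47 CPM ± 1.46 (SD, n = 4) to 41.5 and 21.1 CPM (log2 1.66, SE 0.338, edgeR adjusted p = 0.0198). Nr1h3, which encodes LXRα, rose from 1.15 ± 0.339 to 2.76 and 2.99 CPM (log2 1.26, edgeR adjusted p = 0.039). Lpcat3, a phospholipid enzyme and LXR target, rose from 51.0 ± 2.98 to 62.4 and 67.4 CPM (log2 0.37, edgeR adjusted p = 0.027). Nr1h2, which encodes LXRβ, was not called (103 CPM ± 4.50 in WT, 103 and 112 in KO, edgeR adjusted p = 0.609). None of the list's genes was called without WT 1, 2 or 3, while 9 were called without WT 4, without KO 1 or without KO 2.

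Of 8 tested genes of cholesterol esterification and oxysterols, 4 were lower and 0 higher, beside 16.5% and 14.1% of all genes tested. Soat1, which esterifies cholesterol for storage, fell from 108 CPM ± 1.64 (SD, n = 4) to 24.2 and 67.8 CPM (log2 -1.22, SE 0.336, edgeR adjusted p = 0.0456). Lipe, which hydrolyses the stored esters, fell from 12.0 to 6.60 and 7.91 CPM (log2 -0.69, edgeR adjusted p = 0.0236). Sult2b1, which sulphates sterols, fell from 5.15 to 2.20 and 2.54 CPM (log2 -1.07, edgeR adjusted p = 0.0243). Ch25h, which makes the LXR ligand and SREBP inhibitor 25-hydroxycholesterol, was at 0.290 to 0.808 CPM in WT and had 0 counts in both KO libraries. It was at least 5.22-fold lower, with 3 counts over the KO group as the floor (edgeR adjusted p = 0.0271). Without WT 1, 2 or 3, Soat1, Lipe and Sult2b1 were not called (edgeR adjusted p 0.0753 to 0.111 over the 3 genes), and Ch25h was not without WT 1 or WT 3. Without KO 2 the list held 7 calls.

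The nearest pathway gene by its profile over the 6 libraries differed among the 8 genes. Among 115 genes compared, by the root mean square difference of log2 CPM centred on the WT mean, Sqle was nearest to Nsdhl (0.0434), Idi1 to Msmo1 (0.0575) and Hmgcs1 to the desaturase gene Scd2 (0.0520). Srebf1 was nearest to Acly (0.0599) and Srebf2 to Lpin1 (0.0522). Insig1 was nearest to Abcg1 (0.0815) and Abcg1 to Cyp51 (0.0788), all lower in KO 1 than in KO 2. No gene came as close to Abca1. Its nearest was Gpr183, a receptor for oxysterols, at 0.469, with a WT mean of 3.82 CPM, KO 1 at 0.0512 and KO 2 at 4.40 CPM, and the next was Soat1 at 1.80.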

How the data were processed

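RNA of the 6 libraries was amplified with a SMART-Seq v4 kit, which does not mark strand, and paired ends were read, per the labels' protocols. The deposited values are counts of reads per Entrez gene from featureCounts on mm10, per the submitters' processing notes. For the aligner, versions and strand setting nothing is given in the sources used. Symbols and coordinates came from RefSeq for GRCm38.p6, which named 25275 of 26332 identifiers.

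The test used edgeR 4.0.16 under R 4.3.3. filterByExpr with a count minimum of 10 kept 13294 genes, TMM factors scaled the libraries, and a robust quasi-likelihood F-test compared KO with WT with sex as a term, leaving 3 residual degrees of freedom. The threshold was a p of 0.05 after Benjamini-Hochberg adjustment over all genes tested. CPM are TMM-scaled, RPKM use the deposited gene lengths, and the standard error (SE) is the log2 difference divided by the root of F. Another fit held the interaction of sex with genotype. Alternatives were DESeq2 1.42.0, limma-voom 3.58.1 with a weight per genotype, other scalings, no count filter, no sex term, a replicate block and each library left out. The edgeR and limma-voom fits were tested on simulated data. With equal spread in both genotypes few calls were false, but with the larger spread of KO most edgeR calls and a smaller part of the limma-voom calls were, so edgeR's adjusted p may be too small here. Intervals and floors (3 counts) cover counting error only, since amplified reads are not independent molecules.

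The 8 genes and all lists were chosen with earlier results of these data known. 15 lists with 210 entries were used, 2 of which matched no gene. Named are the 8 genes, Tcf7, per pathway list up to 5 called genes with the smallest adjusted p and up to 3 uncalled genes with the highest mean CPM, some genes always named (Scap, Insig2, Mylip and Nr1h2 among them), and the nearest pathway gene of each of the 8. Some genes under this rule are not reported here, though the counts of the lists include them. Second-nearest genes, other genes called in a list and single markers are named to complete a count and were chosen after their values were seen.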

Additional observations from a re-analysis of the deposited data

Results flagged for a closer look

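Among 62 genes named by the rule and reported, 6 had 1 WT library far from the other 3, a gap that chance alone gives now and then. WT 4 was the library in 4 of them. It was high for Lrp1 (149.8 against 124 to 128), Ncor1, a corepressor of LXR (619 against 527 to 541), Nr1h2 (109 against 99.9 to 101) and Nr1h3 (1.65 against 0.920 to 1.01). WT 2 was high for Erlin1 (49.8 against 46.2 to 46.5) and low for Rnf145 (102 against 108.7 to 109).

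For 4 of the 8 genes the KO effect in males, KO 1 against WT 4, differed from that in females, KO 2 against WT 1 to 3, by edgeR's interaction term, a test in which 54.7% of all genes were called. The log2 difference, male minus female, was -7.44 for Abca1 (adjusted p = 6.6e-19), -0.60 for Abcg1 (7.96e-08), -0.48 for Insig1 (0.000413) and -0.28 for Srebf2 (0.00153). In all 4 the male value was the lower. With 1 KO library per sex and 2 residual degrees of freedom, sex and any other difference between these KO mice cannot be told apart.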

How the results depend on the processing

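RLE or upper quartile scaling and no count filter left Hmgcs1, Sqle and Idi1 called lower, as did DESeq2, and the median over all genes moved by at most 0.031 on the log2 scale. limma-voom with weights per genotype called 1500 genes (987 higher, 513 lower, against 1878 and 2198), 0 of the 8 genes and 9 of the 99 sterol and lipid genes, against 37. Without a sex term Hmgcs1 lost its call (edgeR adjusted p = 0.0507). Leaving out 1 library gave 1665 to 9473 genes, 1 to 7 of the 8 and 9 to 74 of the 99. Without WT 4, KO 1 or KO 2 the spread comes from WT libraries alone. The cause of these differences was not tested.

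The genotypes share replicate numbers, but the samples share only a number (correlations of deviations -0.11 and 0.033). The fit with the replicate block, without sex and with 1 residual degree of freedom, called 748 genes, 0 of the 8 (2 at an unadjusted p under 0.05) and 4 of the 99. It gave a synthesis median of -0.35 against -0.25.

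For the uncalled genes whose sign turned, leaving out 1 library gave log2 values of -6.41 to 1.06 for Abca1, -0.039 to 0.17 for Elovl5, -0.23 to 0.18 for Fasn, -5.52 to 0.053 for Gpr183, -0.86 to 0.51 for Hsd3b7, -0.076 to 0.85 for Mcm2, -0.14 to 0.25 for Mcm6, -0.14 to 0.64 for Mcm7, -0.041 to 0.82 for Mylip, -0.53 to 0.071 for Nceh1, -0.35 to 0.014 for Ncor1, -0.078 to 0.37 for Npc2, -0.099 to 0.17 for Nr1h2, -0.040 to 0.26 for Nus1, -0.57 to 0.24 for Rnf139. Hsd3b7 also turned without a sex term (0.15) and with limma-voom (0.024), and Mcm6 with upper quartile scaling (-0.0067).

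Over the 62 named genes and 13 alternatives, 599 of 804 values kept direction and side of the threshold, 129 lost a call, 50 gained one and 26 turned sign. Of 34 named genes called, 5 (Dhcr7, Gramd1a, Mki67, Osbpl1a and Tcf7) were called in each alternative, and 25 lost the call without WT 1, 2 or 3. Abca1 in KO 1 rests on 4 counts.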

Other observations

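The fatty acid genes that SREBP-1 is known to control gave 4 lower, 0 higher and 10 uncalled genes of 14 tested (median log2 -0.14). Over all genes tested 16.5% were lower and 14.1% higher. The following concerns the 4 lower genes. All 4 were desaturases or an elongase. The uncalled genes also included a desaturase that was higher in KO 2 alone, and the elongase Elovl5 (log2 0.05, edgeR adjusted p = 0.661). Fads2 fell from a WT mean of 193 CPM, KO 1 being at 123 and KO 2 at 64.7 CPM (log2 -1.19, SE 0.221, edgeR adjusted p = 0.0154) and Fads1 from 109 to 80.9 and 62.5 CPM (log2 -0.64, edgeR adjusted p = 0.0149). Elovl6 fell from 73.4 to 49.3 and 32.9 CPM (log2 -0.87, edgeR adjusted p = 0.028) and Scd2, a stearoyl-CoA desaturase, from 1187 ± 87.1 (SD, n = 4) to 838 and 959 CPM (log2 -0.35, edgeR adjusted p = 0.0148). Fasn, the fatty acid synthase (490.5 CPM in WT, 522 and 426 in KO), and Acly (478 in WT, 465 and 428 in KO) were not called. None of the list's genes was called without WT 1, 2 or 3, while 8 were without WT 4 or KO 1 and 10 without KO 2.

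In the isoprenoid branch, which uses the intermediates made by Idi1, 1 of 13 genes was higher and 2 lower (median log2 0.10, turning to -0.15 without WT 4 and -0.14 without KO 1). Of all genes tested, 14.1% were higher and 16.5% lower. Ggps1, which makes the lipid anchor of small GTPases, rose from 39.1 CPM to 42.9 and 61.9 CPM (edgeR adjusted p = 0.0209), and Coq2, of ubiquinone synthesis, fell from 61.2 to 45.1 and 42.8 CPM (edgeR adjusted p = 0.0112). Fnta, a subunit of the prenyl transferases, fell from 82.1 to 58.4 and 67.9 CPM (edgeR adjusted p = 0.0266). Without WT 1, 2 or 3 this list held 0, 1 and 0 calls, and 8, 9 and 8 without WT 4, KO 1 and KO 2.

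Genes of cell division were the last list. Of 18 tested, 4 were higher and 0 lower by edgeR (13 higher by DESeq2), with a median log2 difference of 0.49. By edgeR 14.1% of all genes tested were higher and 16.5% lower. Mki67 rose from 480.0 CPM ± 55.4 (SD, n = 4) to 996 and 807 CPM (log2 0.93, SE 0.151, edgeR adjusted p = 0.0106), and Rrm2, Top2a and Birc5 rose too. The summed level was 4775 to 5709 CPM over the WT libraries, 8816 for KO 1 and 6350 for KO 2. KO 1, lower than KO 2 for 7 of the 8 sterol genes, was higher than KO 2 for all 18 of these. WT 4 was the lowest WT library for all 18, against 35.7% of all genes. Without WT 1, 2 or 3 Mki67 alone was called, while 16 were called without WT 4 or without KO 1 (13 higher and 3 lower) and all 18 without KO 2.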
